A study of Mus musculus with 16 samples.

Results

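The genes described here are 10 mouse genes of fatty acid synthesis: Acly, Acaca, Acacb, Fasn, Scd1, Elovl3, Elovl5, Elovl6, Pnpla3 and Srebf1. They were chosen by name, with earlier results of these data known. All 10 were found by symbol among the 36118 Ensembl gene IDs of each deposited table. In this pathway, citrate that leaves the mitochondrion is split to acetyl-CoA, which is carboxylated to malonyl-CoA and built into palmitate. Elongases and a desaturase then lengthen and desaturate the chain. In the liver the pathway is switched on after feeding by insulin and glucose through the transcription factors encoded by Srebf1 and Mlxipl, and it supplies triglyceride for storage and export.

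Male APCMin/+ mice aged 8 weeks gave the sequenced colorectum and liver RNA, a strain that carries 1 germline Apc allele with the Min mutation and develops intestinal adenomas. Low-group mice drank water with 0.0127 mg/ml of the sialic acid Neu5Gc and high-group mice water with 0.2535 mg/ml, both for 14 days. All groups therefore carried the Min allele and received Neu5Gc, and no group without it is compared here. The colorectum had 4 low and 6 high libraries and the liver 3 low and 3 high. The design text instead counts 6 control and 4 treated mice, so the sample labels were followed. Chow and water were freely available, and the sources used here do not give the hour of collection.

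The libraries held 46093154 to 73913571 estimated counts in the colorectum. In the liver the low libraries held 47511128 to 55887830 and the high libraries 68835890 to 86112726, so depth did not overlap between the liver groups. Hepatocyte markers summed to 87600 to 93446 TPM (the share of transcripts per length, scaled to 1000000 per library) in the low livers and 69203 to 87207 TPM in the high livers, and colonic epithelium markers to 6232 to 13917 TPM in the colorectum. Some libraries carried transcripts of other tissues. Pancreatic acinar genes summed to 8764 TPM in liver low 1 and 3502 TPM in liver high 1, against 1.84 to 11.2 TPM in the other 4 livers. In the colorectum, kidney tubule genes reached 17970 TPM in low 4 and acinar genes 4585 TPM in low 3, while no other library exceeded 66.0 and 27.1 TPM, respectively. Hepatocyte genes summed to 1192 TPM in the same low 4, against 73.7 to 166 TPM in the other colorectum libraries. The labels do not say whether replicates of a group came from separate mice, so p-values measure the spread between these libraries.

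In the liver, 5 of the 10 genes fell and 1 rose with high Neu5Gc. The 5 that fell were Acly, Acacb, Elovl3, Elovl5 and Pnpla3, which act at the entry, regulation, elongation and storage steps. Srebf1, which encodes the transcription factor of the pathway, rose. Acaca, Fasn, Scd1 and Elovl6 did not pass the test, although their fitted changes were also below 0. Across all 15522 genes tested in the liver, 3.15% rose and 3.32% fell at an adjusted p below 0.05. The median log2 change of the 10 genes was -0.86, against 0.0027 over all genes tested. Adjusted p-values here and below are from edgeR's quasi-likelihood test with Benjamini-Hochberg adjustment over all genes tested, and levels by library are estimated counts divided by the library total, scaled to 1000000 (CPM).

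**Figure D1:**
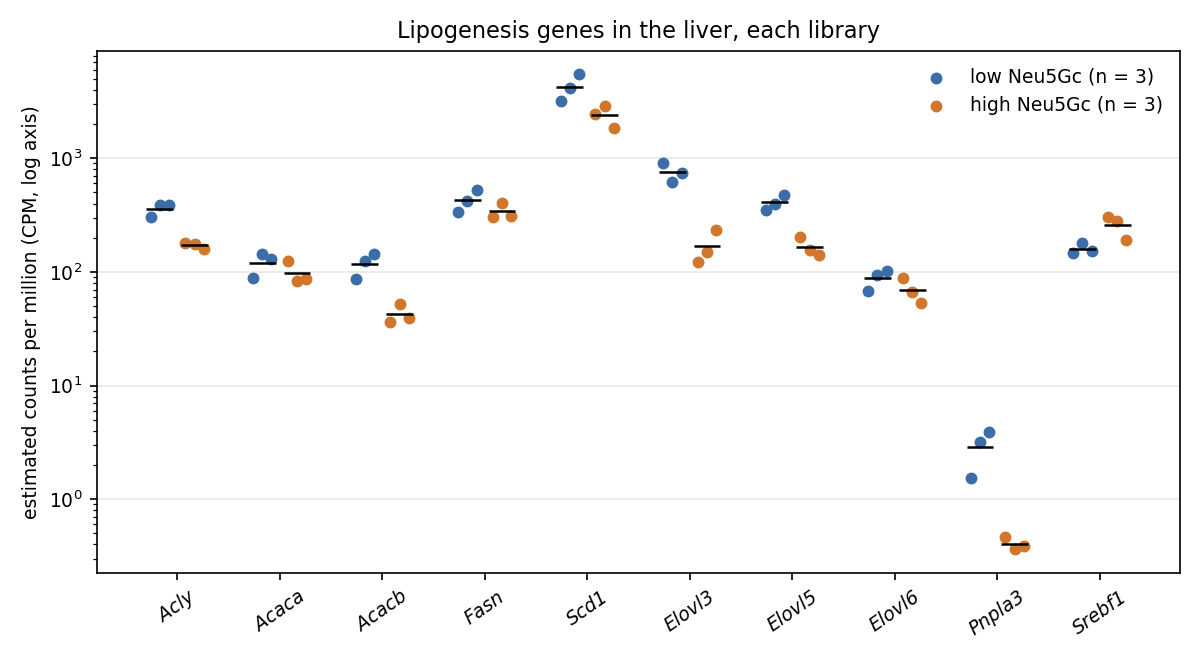
Levels of the 10 lipogenesis genes in each liver library, in CPM on a log axis, with low Neu5Gc in blue, high Neu5Gc in orange and a bar at each group mean (n = 3 and 3). The high libraries lie wholly below the low libraries for 6 genes (Acly, Acacb, Scd1, Elovl3, Elovl5 and Pnpla3) and wholly above for Srebf1.

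Acly encodes ATP-citrate lyase, which makes the cytosolic acetyl-CoA for the pathway. Its liver level was 302, 388 and 392 CPM in low libraries 1 to 3 and 178, 178 and 158 CPM in high libraries 1 to 3. Every high library lay below every low library, and the high libraries lay close together. Acly fell by 0.99 ± 0.10 on the log2 scale (SE; adjusted p = 0.00104), and the call held in all 6 fits that each left out 1 library.

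The acetyl-CoA carboxylases make malonyl-CoA. Acaca encodes the cytosolic enzyme that feeds fatty acid synthase, and Acacb the mitochondrial-surface enzyme whose malonyl-CoA inhibits fatty acid import through carnitine palmitoyltransferase. Acacb was at 86.4, 124 and 145 CPM in the low livers and at 36.2, 52.2 and 39.3 CPM in the high livers, with no overlap. It fell by 1.38 ± 0.19 (log2; adjusted p = 0.00408), also in each fit leaving out 1 library. Acaca was at 88.9, 143 and 129 CPM in the low livers and at 125, 83.3 and 87.3 CPM in the high livers. These ranges overlapped, and the fitted change was -0.20 ± 0.18 (adjusted p = 0.554).

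Fasn encodes fatty acid synthase, which builds palmitate, and Scd1 the desaturase that makes oleate from stearate. Fasn ranged from 338 to 524 CPM in the low livers and from 306 to 406 CPM in the high livers, and its change was -0.23 ± 0.16 (adjusted p = 0.423). Scd1 was at 3168, 4114 and 5465 CPM in the low livers and at 2452, 2873 and 1866 CPM in the high livers. The Scd1 groups did not overlap, but its change of -0.74 ± 0.20 missed the threshold (adjusted p = 0.0869). It passed in the fit without low library 1, which carried acinar transcripts (-0.88, adjusted p = 0.0403), though not without both acinar-positive libraries (-0.87, adjusted p = 0.120). It also passed by the DESeq2 Wald test (adjusted p = 0.00171). By limma on log2(TPM + 1), Scd1 changed by -0.93 (adjusted p = 0.0478), but the median liver gene moved by -0.12 on that scale. Scd1 has close paralogs, and the sources used here do not say how shared reads were assigned.

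The elongases differed among themselves. Elovl3, which lengthens saturated and monounsaturated very long chains, was at 913, 623 and 739.9 CPM in the low livers and at 121, 149.9 and 234 CPM in the high livers. The groups were far apart, and Elovl3 fell by 2.09 ± 0.32 (log2; adjusted p = 0.0179). Without low library 3 or high library 2 the threshold was missed (adjusted p = 0.0662 and 0.101), as it was with no filter on low counts (0.0619). Elovl5, which lengthens polyunsaturated chains, was at 349.9, 398 and 478 CPM in the low livers and at 201, 157 and 141 CPM in the high livers. It fell by 1.21 ± 0.14 (adjusted p = 0.00131), with no overlap and with the call kept in all 6 fits leaving out 1 library. Elovl6, which lengthens palmitate to stearate, ranged from 67.9 to 102 CPM in the low livers and from 53.8 to 88.7 CPM in the high livers. Its ranges overlapped, and its change was -0.25 ± 0.17 (adjusted p = 0.432).

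Elovl3 shares bases with Pitx3 on the opposite strand, and whether the counting used strand is not given. Pitx3 was at 31.5, 15.9 and 14.6 CPM in the low livers and at 0.683, 1.36 and 3.15 CPM in the high livers. These counts amounted to 0.563% to 3.45% of those of Elovl3. Reads of the pair cannot be told apart in an unstranded count.

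Pnpla3 encodes adiponutrin, a lipid droplet protein. Its level was low, at 1.52, 3.17 and 3.91 CPM in the low livers and 0.465, 0.364 and 0.383 CPM in the high livers. Every high library lay below the lowest low library, and Pnpla3 fell by 2.72 ± 0.33 (log2; adjusted p = 0.00196). That was the largest change among the 10 genes in the liver by the count fit. On log2(TPM + 1), Elovl3 changed more (-2.32, against -2.25 for Pnpla3). High livers 1 to 3 held 32, 31 and 33 estimated counts of Pnpla3. Leaving out any 1 library kept the call. A predicted gene, Gm49513, overlaps Pnpla3 on the same strand.

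Srebf1 went the other way. It was at 148, 178 and 154 CPM in the low livers and at 302, 281 and 192 CPM in the high livers, again with no overlap. Srebf1 rose by 0.77 ± 0.15 (log2; adjusted p = 0.0174), but the call held in 2 of the 6 fits leaving out 1 library. It was lost without low 1 (adjusted p = 0.0570), low 3 (0.0816), high 1 (0.0548) or high 2 (0.0763), with a change of at least 0.67 in each fit. On the log2(TPM + 1) scale, where the median liver gene moved by -0.12, Srebf1 moved by 0.54 and missed the threshold (adjusted p = 0.103 by limma). Relative to that median it moved by 0.66, which was not tested. On that scale 13.7% of called genes were higher, against 48.7% in the count test. Relative to the same median, Acly moved by -1.05, Acacb by -1.31, Elovl3 by -2.20, Elovl5 by -1.29 and Pnpla3 by -2.13. All of these genes passed the threshold on that scale, but the test took their change from 0, not from the median. Rai1, on the opposite strand, overlaps Srebf1 and was at 14.4 to 17.3 CPM in the liver.

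In total, 7 of the 10 genes had liver groups that did not overlap in CPM, against 28.1% of all genes tested. The TPM of the 10 genes summed to 2140 ± 343 in the low livers and 1011 ± 150 in the high livers (SD, n = 3 and 3), with ranges of 1843 to 2516 and 843 to 1129. Scd1 and Elovl3 made up most of that sum. In bulk tissue, fewer cells of a type and less RNA per cell cannot be told apart.

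Other features of the liver libraries moved with the groups. Of 18 clock genes, 9 rose and 4 fell in the liver, and their TPM summed to 152 to 207 in the low livers and 263 to 436 in the high livers. Dbp, a clock output transcription factor, rose by 6.34 on the log2 scale (adjusted p = 3.51e-04), Bhlhe41, a repressor of the clock, by 4.59 (1.52e-04) and Nr1d2, a nuclear receptor of the clock, by 2.89 (3.72e-04). Npas2, a partner of the clock activator, fell by 4.12 (4.96e-04). In the colorectum none of the 18 clock genes passed the same test. Skeletal muscle genes summed to 2.66 to 12.8 TPM in the low livers and 140 to 182 TPM in the high livers, and 6 of 7 rose. Squamous epithelium genes stood at 27.1 TPM in high liver 3 and at no more than 0.0722 TPM in the other 5 livers. Of the adipocyte list, 0 of 7 tested genes were called in the liver, and Adipoq, which defines adipocytes, was at 0 to 1.51 TPM. The summed TPM of the hepatocyte markers, as given above, was lower in every high liver than in any low liver. The nearest sums were 87207 TPM (high) and 87600 TPM (low). Fitted log2 changes were above 0 for Alb (0.15), Apoa1 (0.13) and Apob (0.11) and below 0 for the others, with a median of -0.19. Of the 8 markers, 0 rose and 1 fell past the threshold. That gene was Cps1, the first enzyme of the urea cycle (-0.51, adjusted p = 0.0153), and its call was lost without low 1 or high 2 (adjusted p up to 0.0616). The part of clock phase, hepatocyte markers, muscle transcripts, depth and acinar transcripts in the liver results was not tested. Without both acinar-positive livers, Acly, Acacb, Elovl3, Elovl5 and Pnpla3 still passed, and Srebf1 did not (0.66, adjusted p = 0.118).

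In the colorectum, 3 of the 10 genes were called. Acly rose, and Acacb and Elovl6 fell. Across the 17961 genes tested there, 7.29% rose and 8.21% fell. The median log2 change of the 10 genes was -0.07, against -0.02 over all genes tested. The TPM of the 10 genes summed to 355 ± 62.6 in the low libraries (SD, n = 4) and 436 ± 50.1 in the high libraries (SD, n = 6), and these ranges overlapped.

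**Figure D2:**
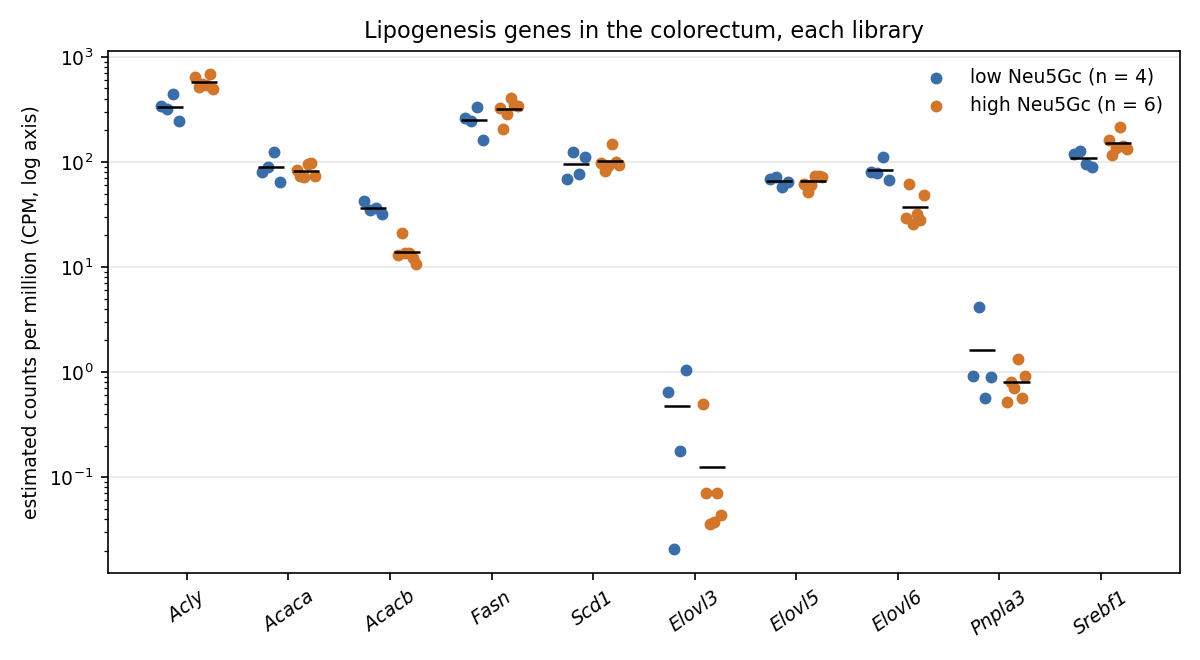
Levels of the 10 lipogenesis genes in each colorectum library, in CPM on a log axis, with low Neu5Gc in blue, high Neu5Gc in orange and a bar at each group mean (n = 4 and 6). The groups do not overlap for 3 genes: Acly is higher, and Acacb and Elovl6 are lower, in the high libraries.

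Acly was at 342, 316, 444 and 243 CPM in low colorectum libraries 1 to 4. The 6 high libraries ran from 489 to 678 CPM, with a median of 544 CPM, all above the low libraries. Acly rose by 0.75 ± 0.20 (log2; adjusted p = 0.0300). The call was lost without low 1 (adjusted p = 0.0633), low 2 (0.0735), low 4 (0.0607), high 1 (0.0634) or high 5 (0.0658), with a change of at least 0.62 in every fit leaving out 1 library. Without the kidney-positive and acinar-positive low libraries 3 and 4 together, it was 0.86 (adjusted p = 0.0122).

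Acacb was at 42.0, 34.7, 36.0 and 32.3 CPM in the low libraries. In the high libraries it ran from 10.7 to 20.9 CPM with a median of 13.3 CPM, wholly below. Acacb fell by 1.38 ± 0.15 (log2; adjusted p = 2.65e-04), in every fit leaving out 1 library and also without low 3 and 4. Acaca, its cytosolic counterpart, ranged from 65.0 to 125 CPM in the low libraries and from 72.2 to 96.7 CPM in the high libraries, and its change was -0.14 ± 0.20 (adjusted p = 0.650).

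Elovl6 was at 79.3, 79.2 and 112 CPM in low libraries 1 to 3 and 66.9 CPM in low 4. The high libraries ran from 25.5 to 61.9 CPM with a median of 30.8 CPM, all below the low libraries. Elovl6 fell by 1.19 ± 0.26 (log2; adjusted p = 0.0135). It stayed called in all 10 fits leaving out 1 library, but without low 3 and 4 together the change was -1.02 and missed the threshold (adjusted p = 0.0664). A predicted gene on the opposite strand, Gm35986, overlaps Elovl6.

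The other genes did not pass in the colorectum. Srebf1 was at 119, 127, 95.8 and 90.0 CPM in the low libraries and at 117 to 213 CPM in the high libraries, with a median of 139 CPM, a change of 0.49 ± 0.17 (adjusted p = 0.0645). It passed without high 2 (adjusted p = 0.0313) and by the DESeq2 Wald test (adjusted p = 0.0429). Fasn ranged from 163 to 332 CPM in the low libraries and from 208 to 403 CPM in the high libraries, a change of 0.35 ± 0.24 (adjusted p = 0.335). Scd1 (0.10 ± 0.20, adjusted p = 0.769) and Elovl5 (0.0065 ± 0.13, adjusted p = 0.977) had fitted changes smaller than their standard errors. Elovl5 lay between 57.8 and 71.6 CPM in low libraries and between 51.8 and 73.9 CPM in high libraries. Scd1 lay between 68.3 and 125 CPM in low libraries, and between 81.3 and 147 CPM in high libraries with a median of 95.3 CPM.

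Elovl3 and Pnpla3 were scarce in the colorectum. Elovl3 had 48, 1, 10 and 70 estimated counts in the low libraries and 2 to 27 in the high libraries, which gave a change of -1.90 ± 0.94 (adjusted p = 0.189). Pnpla3 was at 4.14 CPM in low 2 and between 0.517 and 1.32 CPM in the other 9 libraries. Its change of -0.97 ± 0.49 (adjusted p = 0.192) was -0.01 in the fit without that library and -1.59 without low 3 and 4 (adjusted p = 0.0587). Adipocyte genes summed to 505 TPM in low 2, 71.0 to 188 TPM in the other low libraries and 101 to 302 TPM in the high libraries, and 0 of 8 were called. Their part in the Pnpla3 level was not tested.

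In total, 3 of the 10 genes had colorectum groups that did not overlap in CPM, against 12.7% of all genes tested. Among colonic epithelium markers, Car1, a carbonic anhydrase of surface colonocytes, fell by 3.29 on the log2 scale (adjusted p = 5.59e-04) and Cdx2, an intestinal transcription factor, by 1.25 (adjusted p = 0.0171, and 0.0525 without low 2). Of the 8 genes of that list, 1 rose and 2 fell, with a median log2 change of 0.04. Lgals4 was at 2556 ± 477 CPM in the low and 3998 ± 513 CPM in the high libraries (SD, n = 4 and 6). Mean CPM was also higher in the high libraries for Slc26a3, Vil1 and Epcam, and lower for Krt20 and Cdh17. Markers of other cell types moved as well. Of 8 pancreatic acinar genes tested, 0 rose and 7 fell, and of 7 kidney tubule genes 0 rose and 2 fell. As given above, acinar genes reached 4585 TPM in low 3 alone and kidney tubule genes 17970 TPM in low 4 alone. These calls are counted in the 8.21% of tested genes that fell. Squamous epithelium genes summed to 0.402 to 0.995 TPM in low colorectum libraries and to 1.06 to 8.27 TPM in high ones, with no overlap. Of the 2 tested, Krt14, a basal keratin, rose (2.15, adjusted p = 0.0413), a call kept in 1 of 10 fits, the fit without high 2 (adjusted p up to 0.0748 otherwise). Krt5 went from a mean of 0.367 CPM in the low to 0.278 CPM in the high libraries. Trp63 also had a lower mean there, and Krt13 and Krt4 had higher means. Skeletal muscle genes summed to 28.6 to 71.1 TPM in low libraries and 21.1 to 36.2 TPM in high ones, which overlapped. Of the 6 tested, Acta1 (-1.76, adjusted p = 0.00442) and Ckm (-1.24, adjusted p = 0.00386) fell, in all 10 fits leaving out 1 library. Other muscle genes were not called. Mean CPM was lower in the high libraries for Myh4 and Myh1. It was higher for Tnnt3 (0.828 low, 1.08 high), Mylpf (1.66 and 1.85) and Tnni2 (0.782 and 1.15). Sebaceous gland genes summed to 7.71 to 8.13 TPM in low libraries 1 to 3 and 4.79 to 7.26 TPM in the high libraries. They reached 86.4 TPM in low 4, the kidney-positive library, where Mogat1 alone was at 80.3 TPM. Of the 5 tested, Scd3 rose and Far2, which makes fatty alcohols, fell (-0.75, adjusted p = 0.0107). The part of these markers in the colorectum results was not tested.

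The change itself was then compared between the tissues, as the liver change minus the colorectum change in 1 fit of all 16 libraries. It differed for 2 of the 10 genes, against 8.04% of the 18703 genes tested. Acly fell in the liver and rose in the colorectum, a difference of -1.75 ± 0.28 (log2; adjusted p = 0.00189). For Elovl5, which fell in the liver, the difference was -1.23 ± 0.22 (adjusted p = 0.00381). Both calls held in all 16 fits leaving out 1 library. Acacb had nearly equal changes in the tissues, with a difference of -0.003 ± 0.27 (adjusted p = 0.9999). For Pnpla3 the difference of -1.75 ± 0.74 missed the threshold (adjusted p = 0.155), and without colorectum low 2 it was -2.72 and passed (adjusted p = 0.00600). Elovl6 (0.92 ± 0.39, adjusted p = 0.159), Scd1 (-0.84 ± 0.35, adjusted p = 0.154), Fasn (-0.59 ± 0.36, adjusted p = 0.327) and Srebf1 (0.27 ± 0.26, adjusted p = 0.551) did not pass. The same holds for Acaca (-0.07 ± 0.31) and Elovl3 (-0.19 ± 1.38). An effect called in a single tissue is thus not shown to differ between tissues for Elovl3, Elovl6, Pnpla3 or Srebf1.

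**Figure D3:**
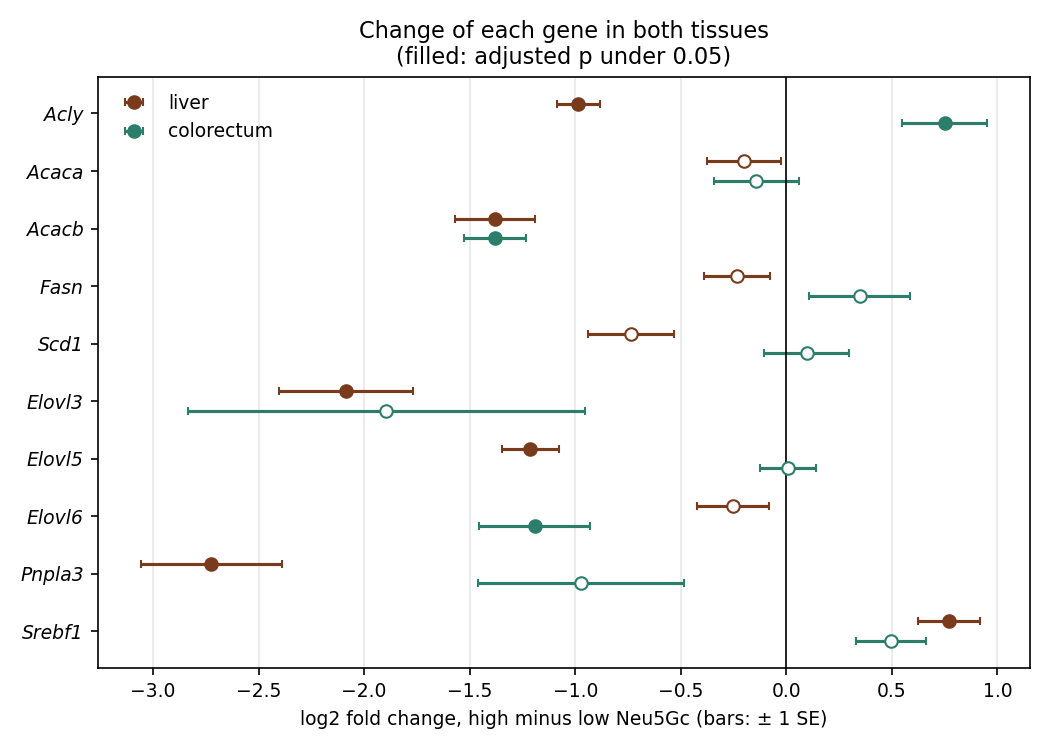
Log2 fold change of each gene, high minus low Neu5Gc, in the liver (brown) and the colorectum (green), with bars of 1 SE and filled points at an adjusted p below 0.05. Acly lies on opposite sides of 0 in the tissues (-0.99 and 0.75), while Acacb lies at -1.38 in both.

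The start regions of Acly and Elovl5, whose changes differed between tissues, and of Acacb, which fell in both, are shown for context. The RefSeq promoter table (GRCm38.p6) held 8 of the 10 genes, all but Scd1 and Elovl3, with 10 starts. Each window runs from 250 bases before to 50 after the annotated start, 5′ to 3′ on the strand of the gene. Acly lies at chr11:100527951-100528250 on the minus strand, Elovl5 at chr9:77917115-77917414 on the plus strand and Acacb at chr5:114165268-114165567 on the plus strand. Capitals mark matches, on either strand, to the letters named after the sequences.
Acly: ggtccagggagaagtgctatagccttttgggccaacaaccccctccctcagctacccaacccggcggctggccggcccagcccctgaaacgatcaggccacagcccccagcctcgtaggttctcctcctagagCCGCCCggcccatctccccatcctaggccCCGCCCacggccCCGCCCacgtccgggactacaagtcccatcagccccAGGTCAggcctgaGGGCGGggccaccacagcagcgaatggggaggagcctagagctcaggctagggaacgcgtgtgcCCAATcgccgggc
Elovl5: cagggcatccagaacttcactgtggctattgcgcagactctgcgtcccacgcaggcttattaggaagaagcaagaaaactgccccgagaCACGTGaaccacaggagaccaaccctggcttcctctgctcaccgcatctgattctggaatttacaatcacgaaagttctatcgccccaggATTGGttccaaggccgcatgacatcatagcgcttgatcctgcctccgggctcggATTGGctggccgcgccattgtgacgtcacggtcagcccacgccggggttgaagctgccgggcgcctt
Acacb: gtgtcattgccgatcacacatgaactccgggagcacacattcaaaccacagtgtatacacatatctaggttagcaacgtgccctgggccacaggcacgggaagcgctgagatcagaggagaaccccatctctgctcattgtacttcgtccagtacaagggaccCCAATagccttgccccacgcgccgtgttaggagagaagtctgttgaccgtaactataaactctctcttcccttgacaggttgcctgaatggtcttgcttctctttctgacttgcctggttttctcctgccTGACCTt

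The letters searched were CACGTG (E-box), TTANGTAA (D-box), AGGTCA (nuclear receptor half-site), TCACNCCAC (a form of the sterol regulatory element), CCAAT (NF-Y box) and GGGCGG (GC box). The Acly window holds 4 GC boxes, 1 CCAAT and 1 AGGTCA. The Elovl5 window holds 1 CACGTG and 2 CCAAT, and the Acacb window 1 CCAAT and 1 AGGTCA. Among the 8 genes, each counted once for a match at any of its starts, CCAAT was in 6, GGGCGG in 3, AGGTCA in 3 and CACGTG in 1. TTANGTAA and TCACNCCAC were in 0. All 32851 windows of the table were counted singly, an unlike unit where a gene has several starts. Their shares were 37.4% for CCAAT, 35.7% for GGGCGG, 16.3% for AGGTCA, 7.15% for CACGTG, 2.32% for TTANGTAA and 1.24% for TCACNCCAC. The matches are descriptions of letters, and binding was not measured.

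The order of the levels per length differed between the tissues. In the low livers Scd1 was highest at a mean of 1049 TPM, then Elovl3 (539.7 TPM), Elovl5 (184 TPM) and Acly (118 TPM), and each of the first 3 lay wholly above the next gene. Acly, Srebf1 (90.4 TPM) and Fasn (84.0 TPM) overlapped with their neighbours in that order, as did Acaca, Elovl6, Acacb and Pnpla3, at 25.7 down to 11.6 TPM. In the high livers Scd1 remained first at 544 TPM, and Srebf1 was next at 135 TPM. Below it came Elovl3 (109.6 TPM), Elovl5 (69.2 TPM), Fasn (61.5 TPM) and Acly (51.7 TPM), and from Srebf1 to Acly each neighbouring pair overlapped.

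In the colorectum Acly was highest, at 130.1 TPM in the low and 206 TPM in the high libraries, wholly above every other member. Fasn (60.5 and 72.2 TPM) and Srebf1 (54.7 and 72.1 TPM) followed and overlapped with each other. Scd1, first in the liver, was at 25.5 TPM in the low and 25.8 TPM in the high colorectum libraries, and Elovl3 was last at 0.372 and 0.0928 TPM. Pnpla3 was the member whose TPM exceeded its CPM in every group (11.6 TPM for 2.87 CPM in the low livers), so its rank per length rests on the length the authors' tool assigned to it.

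Ratios within a library do not depend on how libraries are scaled. The Acacb to Acaca ratio in TPM was 0.606 to 0.786 in the low livers and 0.203 to 0.439 in the high livers. In the colorectum it was 0.290 to 0.524 with low Neu5Gc and 0.127 to 0.285 with high Neu5Gc. The high libraries thus lay below the low libraries in both tissues. The Elovl5 to Elovl6 ratio went opposite ways, from 8.87 to 10.9 down to 4.79 to 5.55 in the liver, and from 1.04 to 1.93 up to 1.69 to 5.32 in the colorectum, where the ranges overlapped. The Acly to Fasn ratio was 1.25 to 1.55 in the low livers and 0.729 to 0.970 in the high livers, and 2.08 to 2.39 against 2.14 to 3.96 in the colorectum. These ratios were not tested, and each shows unequal levels of a pair, not which gene moved.

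**Figure D4:**
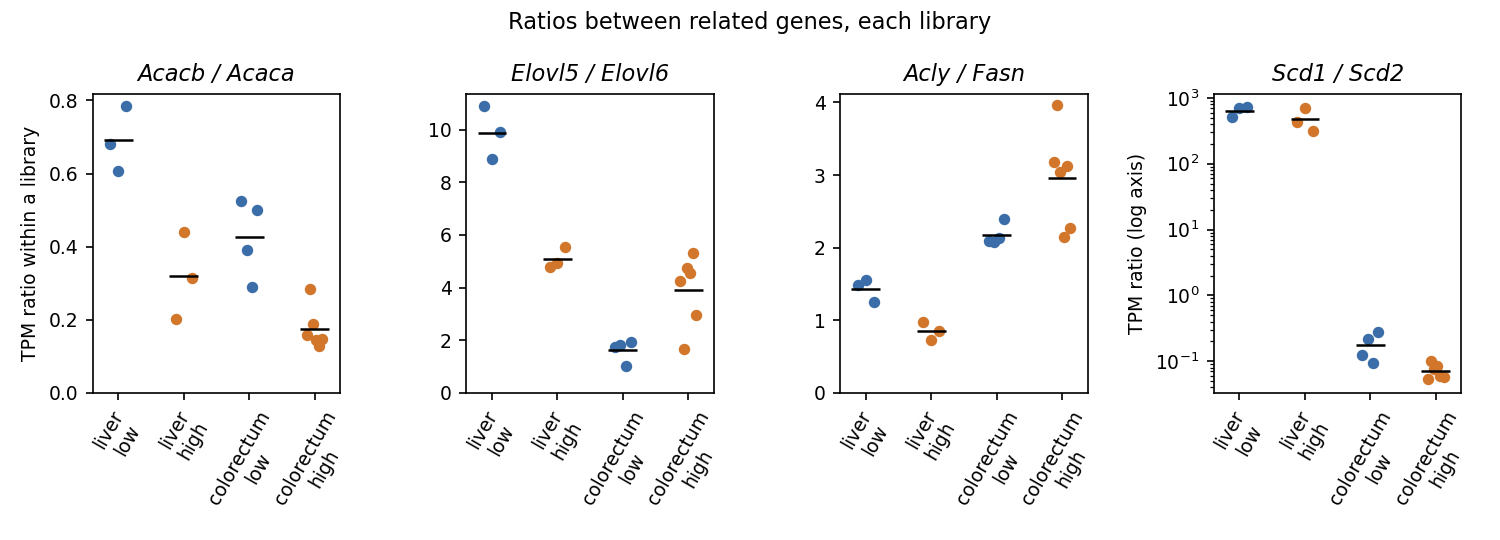
Ratios of TPM between related genes in each library of the 4 groups (blue low, orange high, bar at the mean), with a log axis for Scd1 over Scd2. Acacb over Acaca is lower in the high libraries of both tissues, and Scd1 over Scd2 is 315 to 725 in the liver and 0.0531 to 0.279 in the colorectum.

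The tissues differed in the desaturase gene they held most of. Scd2, a paralog of Scd1, was at 7.47 ± 0.98 CPM in the low livers (SD, n = 3) and 693 ± 207 CPM in the low colorectum libraries (SD, n = 4). In the colorectum, Scd2 rose to 1743 ± 462 CPM (SD, n = 6; log2 change 1.33, adjusted p = 0.0142). Scd3 also rose there (2.12, adjusted p = 0.00495), at no more than 3.22 CPM. Fads2, the first desaturase of polyunsaturated fatty acid synthesis, rose from 175 ± 75.4 to 453 ± 74.1 CPM (1.34, adjusted p = 0.0124), and Hacd3, a dehydratase of the elongation cycle, by 0.75 (adjusted p = 0.00314). These 4 calls held in all 10 fits leaving out 1 library. Of the 14 other desaturase and elongation genes, 4 rose and 2 fell in the colorectum (median log2 change 0.23). In the liver 0 rose and 1 fell of 12 tested (median -0.12), namely Elovl1, which lengthens very long chains (-0.58, adjusted p = 0.0209). That call was lost without low 3, high 1 or high 2 (adjusted p up to 0.0786).

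Genes that supply acetyl-CoA and NADPH numbered 12. In the liver 0 rose and 2 fell (median -0.13). Acss2, which makes acetyl-CoA from acetate, fell from 245 ± 28.3 to 119 ± 17.5 CPM (SD, n = 3 and 3; log2 change -0.96, adjusted p = 0.00188). Pgd, an NADPH-making enzyme of the pentose phosphate pathway, fell from 48.0 ± 4.52 to 29.0 ± 1.12 CPM (-0.64, adjusted p = 0.00620). In the colorectum 1 rose and 1 fell (median -0.02). Me1, the cytosolic malic enzyme that makes NADPH, fell by 3.08 (adjusted p = 0.00875), with 228 CPM in its highest low library. Without low 3 and 4, which carried acinar and kidney transcripts, it fell by 1.81 (adjusted p = 2.19e-04). G6pdx, which opens the pentose phosphate pathway, rose by 0.55 (adjusted p = 0.0271), in 5 of 10 fits leaving out 1 library. It missed the threshold without low 1, low 2, low 4, high 1 or high 6 (adjusted p up to 0.0575).

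Of 15 regulators of the pathway, 1 rose and 1 fell in the liver (median -0.0039), and 0 were called in the colorectum (median -0.02). Insig2, which retains the SREBP precursor in the endoplasmic reticulum, fell from 287 ± 68.0 to 123 ± 14.1 CPM in the liver (-1.13, adjusted p = 0.00492). Ppargc1b, a coactivator of the SREBP proteins, rose from 2.14 ± 0.71 to 4.70 ± 0.40 CPM (1.22, adjusted p = 0.0141, and 0.0505 without low 3). Mlxipl, which encodes the glucose-responsive factor ChREBP, was at 428 ± 76.1 and 324 ± 33.0 CPM in the liver and did not pass (-0.31, adjusted p = 0.173).

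**Figure D5:**
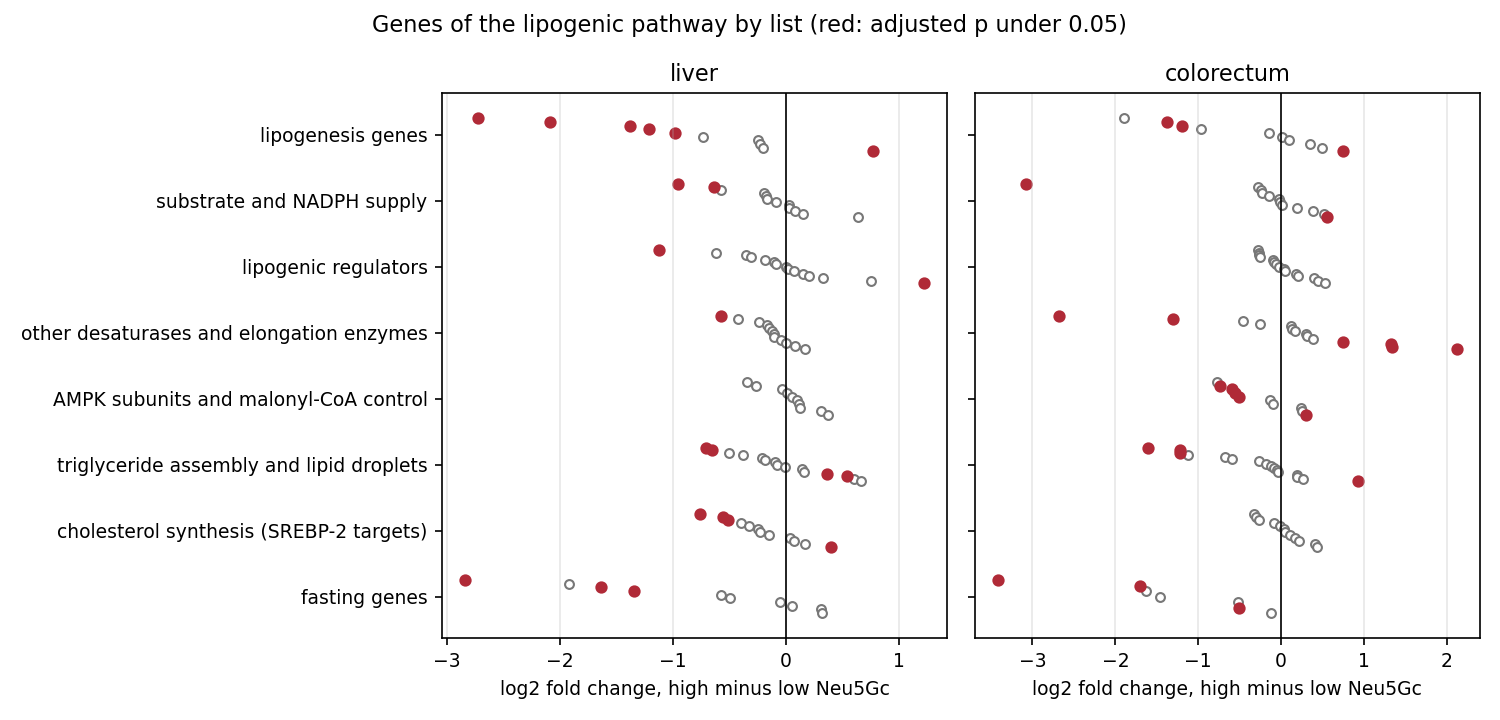
Log2 fold change, high minus low Neu5Gc, of every tested gene of 8 lists in the liver (left) and the colorectum (right), 1 point a gene, red at an adjusted p below 0.05. In the liver the 10 lipogenesis genes have a median of -0.86, while the AMPK list has 0 of 10 genes called there and 5 of 10 in the colorectum.

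AMPK phosphorylates and inhibits the enzymes of Acaca and Acacb when energy is short. Of 10 genes for AMPK subunits and malonyl-CoA control, 0 were called in the liver (median 0.07), while 1 rose and 4 fell in the colorectum (median -0.32). The catalytic subunit genes Prkaa2 (-0.74, adjusted p = 0.00302) and Prkaa1 (-0.59, adjusted p = 0.00304) fell there, as did the regulatory subunit gene Prkag2 (-0.55, adjusted p = 0.00340), each in all 10 fits leaving out 1 library. Prkag1, another regulatory subunit gene, rose by 0.29 (adjusted p = 0.0407), but in 8 of those fits, all but the ones without low 3 or high 2, it missed the threshold (adjusted p up to 0.0962). In the liver Prkaa2 was at 53.8 ± 6.15 and 65.5 ± 12.4 CPM and did not pass (0.37, adjusted p = 0.131). The difference between tissues was called for Prkaa2 (1.10, adjusted p = 0.00427).

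Of 16 genes of triglyceride assembly and lipid droplets, 15 were tested in the liver, where 2 rose and 2 fell (median -0.08). Plin2, a coat protein of lipid droplets, fell from 399 ± 33.4 to 230.1 ± 27.8 CPM (-0.71, adjusted p = 0.00812). Pnpla2, the lipase that starts triglyceride breakdown, rose by 0.54 (adjusted p = 0.0275), but not without low 1, low 3, high 2 or high 3 (adjusted p up to 0.0995). Agpat2, an acyltransferase of the pathway, fell by 0.65 (adjusted p = 0.0298), but not without low 1, low 3 or high 2 (adjusted p up to 0.105). Dgat2, which makes triglyceride, rose by 0.36 (adjusted p = 0.0370), a call lost in each of the 6 fits leaving out 1 library.

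In the colorectum 1 of these 16 genes rose and 3 fell (median -0.15). Plin2 rose there from 67.4 ± 16.1 to 127 ± 17.2 CPM (0.93, adjusted p = 0.00471), and its change differed between tissues (-1.64, liver minus colorectum; adjusted p = 0.00152). Lpin2 (-1.22, adjusted p = 5.11e-04) and Lpin1 (-1.22, adjusted p = 0.00245), whose enzymes make diacylglycerol, fell in the colorectum in all 10 fits leaving out 1 library. Plin5, a droplet protein of oxidative cells, was scarce, at most 2.49 CPM, and fell by 1.61 (adjusted p = 0.0471). That call held only without low 3 and without high 4 (adjusted p up to 0.194 otherwise), and without low 3 and 4 together the change was -0.94.

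By a likeness rule, the genes whose levels most resembled the mean standardized level of the 10 genes were named, among genes with a mean of at least 5 CPM. Genes on any list used here, and genes with predicted or unnamed symbols, were left out before the ranking. Over the 6 livers and 9015 genes these were Pigu (Pearson r = 0.999), Tti1 (0.997), Trappc11 (0.996), Cap1 (0.996) and Gpr180 (0.993). Over the 10 colorectum libraries and 11771 genes they were Fam83g (0.881), Kdm5c (0.876), Mlph (0.832), Actr1a (0.818) and Gorasp2 (0.809). These values describe the libraries only, and all values of a library share its depth. Pigu was at 15.6 ± 1.35 CPM in the low livers and 12.7 ± 0.77 CPM in the high livers (SD, n = 3 and 3).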

How the data were processed

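Per the labels' protocols, RNA was extracted with Trizol and a NEBNext Ultra kit was used for the libraries. The authors deposited estimated counts and TPM per Ensembl gene for each tissue. The build is GRCm39 per the submitters' processing notes, and the sources used here name no quantifier, annotation or strand setting. Symbols came from GENCODE M21, which named 35825 of 36118 IDs (99.2%). Estimated counts were rounded to whole numbers.

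Each tissue was fitted alone in edgeR 4.0.16 (R 4.3.3; TMM, filterByExpr, robust quasi-likelihood test, two-sided), with Benjamini-Hochberg adjustment over all genes tested and a threshold of 0.05. The tissue difference was an interaction contrast over 16 libraries. SE is the log2 change divided by the root of F. The code was tested on simulated data.

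The members, lists and tests were chosen with earlier results of these data known. All 10 members are named, and up to 4 called genes per pathway list by smallest p, or 1 not called. Additional genes named (Scd2 in the liver, Mlxipl, Prkaa2 in the liver, Adipoq, Car1, Cdx2, Cps1, Krt14, Acta1, Ckm, Far2, the other cell type markers and overlapping genes) were chosen after their values were seen. Alternatives were DESeq2 1.42.0 size factors and Wald test, limma 3.58.1 (voom, or trend on log2(TPM + 1) and log2(TPM + 0.1)), no count filter, a replicate block, and leaving out libraries. The fit without both acinar-positive livers was chosen after seeing the data. Libraries held 46093154 to 86112726 estimated counts. A gene that the naming rule selects is not reported here.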

Additional observations from a re-analysis of the deposited data

Results flagged for a closer look

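In 4 groups of 4 or 6 colorectum libraries, 1 library stood farther from its neighbours than a Dixon test at the 95% level allows, which chance gives in about 1 of 20 groups. The rule was applied to each of the 10 genes in the low and in the high colorectum libraries. It was not applied to the liver, whose groups held 3 libraries. Acacb was at 20.89 CPM in high library 2, the highest of 6, yet still below every low library. Scd1 was at 146.5 CPM in high library 4, the highest of 6. Elovl3 was at 0.4985 CPM in high library 1, the highest of 6, from 27 estimated counts. Pnpla3 was at 4.143 CPM in low library 2, the highest of 4.

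The change with high Neu5Gc differed between tissues for Acly (-1.746 on the log2 scale, liver minus colorectum) and Elovl5 (-1.23), by the interaction test in edgeR. Acly was lower in 3 of 3 high livers and higher in 6 of 6 high colorectum libraries than in any low library of the same tissue.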

How the results depend on the processing

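In the liver, 1004 genes were called, against 1742 by the DESeq2 Wald test, 1660 on log2(TPM + 1), 1769 on log2(TPM + 0.1), 365 without both acinar-positive libraries and 387 (without low 3) to 935 leaving out 1 library. In the colorectum 2784 were called, against 1592 (without high 5) to 3654 leaving out 1 library. For the tissue difference 1504 were called, against 2352 by the Wald test, 603 without both acinar-positive livers and 825 (without liver low 3) to 2177 leaving out 1 library. The cause was not tested. The numbers were not taken as pairs, because the labels do not say that equal numbers share an animal or batch. Same-numbered libraries correlated at 0.471, 0.276 and 0.0675 in the liver (4 of 6 closest to their own number) and at -0.104 to -0.0262 in the colorectum (0 of 8). For the liver, where each value was above 0, this does not settle whether libraries were paired. With the replicate block, 630 genes were called in the liver and 477 in the colorectum, where 1 lipogenesis gene, Acacb, was left and Elovl5 was at -0.13. Changes near 0 turned sign. Elovl5 in the colorectum was -0.0091 with DESeq2 size factors, -0.0092 by the Wald test, -0.014 by voom, -0.095 and -0.098 on the TPM scales, -0.032 without low 3 and 4, and -0.046 to 0.075 leaving out 1 library. Acaca in the colorectum was 0.020 without low 3 and 4, and -0.27 to 0.14 leaving out 1 library, and Scd1 was -0.056 to 0.22. The Acacb difference was 0.0099 with DESeq2 size factors and by the Wald test, 0.0045 by voom, 0.0079 without a count filter, 0.0083 without low 3 and 4, and -0.18 to 0.14 leaving out 1 library. The Acaca difference was -0.32 to 0.057, and the Elovl3 difference -0.89 to 1.07 and 0.25 without both acinar-positive livers. Depth limits Elovl3 and Pnpla3 in the colorectum, where counts were as low as 1 and 28, and Pnpla3 in the liver, where they were as low as 31.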

Other observations

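Cholesterol synthesis shares its regulators with fatty acid synthesis. Of 12 genes of that pathway, 1 rose and 3 fell in the liver (median log2 change -0.24), and 0 were called in the colorectum (median 0.04). Lss, which closes the sterol rings, fell from 76.0 ± 9.18 to 42.5 ± 5.37 CPM (SD, n = 3 and 3; log2 change -0.76, adjusted p = 0.00408 by edgeR), in all 6 fits leaving out 1 library. Dhcr7 (-0.51, adjusted p = 0.0381), Fdps (-0.56, adjusted p = 0.0438) and Msmo1 (0.40, adjusted p = 0.0428) were called in 1, 2 and 0 of those 6 fits.

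Of 10 genes known to rise in the fasted liver, 0 rose and 3 fell there (median -0.54). Igfbp1, an insulin-repressed binding protein of growth factors, fell from 89.4 ± 6.82 to 11.7 ± 1.88 CPM (-2.84, adjusted p = 2.39e-05). Irs2, an adaptor of the insulin receptor, fell from 29.5 ± 1.92 to 8.96 ± 0.999 CPM (-1.64, adjusted p = 1.66e-04). Pdk4, which blocks glucose oxidation, fell from 13.6 ± 3.56 to 5.01 ± 0.45 CPM (-1.35, adjusted p = 0.00300). These 3 calls held in all 6 fits leaving out 1 library. In the colorectum, Pdk4 (-1.70, adjusted p = 0.0323) and Cpt1a (-0.51, adjusted p = 0.0493) fell, and were called in 3 and 2 of the 10 fits leaving out 1 library.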
